A study of Mus musculus with 10 samples.

Results

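Bulk RNA-seq of the mandibular prominence (MNP), the embryonic bud that forms the lower jaw, was examined for 9 genes of the oral and surface epithelium, Epcam, Cdh1, Cldn4, Krt8, Krt18, Krt5, Trp63, Grhl3 and Sfn. They were chosen by name as genes of epithelial identity and of the periderm, and they make up 9 of the 33641 gene symbols in the processed data. All 9 passed the filter on low counts, as did 17477 genes in all. Every embryo was at embryonic day 10.5 and of CD1 strain. The WT group was wild-type, the Hand2 cKO group carried Hand2 f/f with Wnt1-Cre, and the Gli2/3 cKO group carried Gli2 f/f and Gli3 f/f with Wnt1-Cre. Wnt1-Cre is a driver of recombination in the neural crest, so the floxed genes were removed from the crest-derived mesenchyme and not from the epithelium that covers it, and the whole dissected MNP was sequenced. The labels describe 10 samples. The 6 libraries used here were WT 3 and WT 4, Hand2 cKO 1, 2 and 3, and Gli2/3 cKO 3, and the other 4 samples were not analysed here. The Gli2/3 cKO group therefore had 1 library and no replicate of its own. The study calls its samples biological, but neither it nor the labels say whether a library was made from 1 embryo or from a pool, and the p-values measure only the spread between these libraries.

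At this stage the MNP is a core of mesenchyme wrapped in a thin epithelium, with ectoderm on the outer and oral faces and pharyngeal endoderm further back. The ectoderm begins as a simple sheet that holds the keratins Krt8 and Krt18. It then gains a basal layer under the control of the transcription factor p63, encoded by Trp63, with Krt5 and Krt14 as basal keratins, and a flat outer layer, the periderm, that keeps surfaces of the mouth from sticking together. The grainyhead-like factor Grhl3 and the 14-3-3 protein stratifin, encoded by Sfn, act in the differentiation of periderm and outer epidermis. Epcam and Cdh1 (E-cadherin) are adhesion molecules found at the borders of nearly all epithelial cells, and Cldn4 is a claudin of the tight junction. The epithelium is also a source of signals to the mesenchyme. In bulk tissue, fewer cells of a type and less RNA per cell cannot be told apart.

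The 9 genes lie on 6 chromosomes of the mouse genome (mm10, annotation GENCODE M21). Krt8 and Krt18, whose proteins pair into 1 filament, are neighbours on chromosome 15 and stand 23697 bases apart on opposite strands, with Krt5 283799 bases from Krt8 on the same chromosome. Grhl3 (135541888 to 135573630) and Sfn (133600556 to 133602168) are both on the minus strand of chromosome 4. Promoters from RefSeq (GRCm38.p6), running from 250 bases before the start of transcription to 50 bases after it, were at hand for 7 of the 9 genes, all but Cdh1 and Trp63. The E-box CACCTG, or CAGGTG on the other strand, is the site that repressors of the Snail and Zeb families are known to bind in epithelial promoters. These letters were present in 7 of the 7 promoters, against 20.2% of all 32851 promoters of the same length. 5 promoters are shown, 1 or more for each layer of the epithelium, with every match to either strand of this E-box in capitals and each promoter read 5′ to 3′ along its own gene.

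Epcam promoter, chr17:87635729-87636028, plus strand: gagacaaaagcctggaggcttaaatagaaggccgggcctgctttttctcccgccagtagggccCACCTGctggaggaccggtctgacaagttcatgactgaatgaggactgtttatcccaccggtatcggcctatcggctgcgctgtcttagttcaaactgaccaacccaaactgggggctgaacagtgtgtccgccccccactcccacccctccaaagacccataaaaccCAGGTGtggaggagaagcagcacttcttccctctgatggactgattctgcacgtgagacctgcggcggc
Krt8 promoter, chr15:102004293-102004592, minus strand: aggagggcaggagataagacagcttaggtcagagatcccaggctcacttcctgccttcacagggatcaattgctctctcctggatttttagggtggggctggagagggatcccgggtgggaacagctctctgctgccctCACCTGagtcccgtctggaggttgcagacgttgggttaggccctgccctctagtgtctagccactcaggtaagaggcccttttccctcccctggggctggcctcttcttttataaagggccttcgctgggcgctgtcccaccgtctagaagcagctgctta
Krt5 promoter, chr15:101712856-101713155, minus strand: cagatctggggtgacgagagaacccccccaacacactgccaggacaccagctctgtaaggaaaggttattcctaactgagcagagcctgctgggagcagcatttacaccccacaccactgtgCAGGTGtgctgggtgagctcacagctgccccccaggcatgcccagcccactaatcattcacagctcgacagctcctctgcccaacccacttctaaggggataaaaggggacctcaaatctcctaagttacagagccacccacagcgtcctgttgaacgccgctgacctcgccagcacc
Grhl3 promoter, chr4:135573583-135573882, minus strand: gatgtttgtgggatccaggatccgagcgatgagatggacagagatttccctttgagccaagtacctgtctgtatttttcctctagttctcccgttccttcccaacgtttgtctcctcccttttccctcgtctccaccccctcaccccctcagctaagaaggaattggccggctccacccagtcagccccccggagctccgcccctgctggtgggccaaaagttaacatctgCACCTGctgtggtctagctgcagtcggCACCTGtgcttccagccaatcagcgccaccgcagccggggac
Sfn promoter, chr4:133602119-133602418, minus strand: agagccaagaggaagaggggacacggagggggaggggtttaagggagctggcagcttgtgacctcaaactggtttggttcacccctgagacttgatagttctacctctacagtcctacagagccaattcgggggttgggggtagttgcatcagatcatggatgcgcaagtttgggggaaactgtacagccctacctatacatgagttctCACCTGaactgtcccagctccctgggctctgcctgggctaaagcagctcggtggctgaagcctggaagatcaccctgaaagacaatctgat

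In Grhl3 the matches began 19 bases before and 9 bases after the start, in Sfn 41 bases before it, in Epcam 187 and 19 bases before it, in Krt8 111 and in Krt5 128 bases before it. Among 47 further epithelial genes, 22 had a promoter and 13 of these (59.1%) held the E-box in at least 1, against 22.6% of all 27025 genes with a promoter. Each of these matches describes the letters and not a bound site. Other motifs were searched on both strands in the same windows. The general E-box CANNTG, which includes the one above, stood in 7 of the 7 promoters and in 72.3% of all promoters. The Gli site GACCACCCA stood in 0 of the 7 (0.253% of all), the grainyhead site AACCGGTT in 0 (0.146%) and its shorter form ACCGGTT in 0 (1.02%). TATAAA stood in 1 of the 7 (13.6% of all), CCAAT in 2 (37.4%) and GGGCGG in 3 (35.7%).

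The 6 libraries held 21420197 to 53326697 estimated counts. Hand2, the targeted gene, was at 174 and 209 CPM (counts scaled to the size of each library and corrected for its composition) in WT 3 and WT 4 and at 13.4, 25.5 and 15.6 CPM in Hand2 cKO 1 to 3. In Gli2/3 cKO 3, Gli2 was at 58.3 CPM (WT mean 114) and Gli3 at 80.2 CPM (WT mean 160). The 10.6-fold lower Hand2 level missed the threshold used for all genes (edgeR, Benjamini-Hochberg adjusted p = 0.058), so a gene that was not called may still differ by a large fold. Hand2 cKO 2 stood apart. Its log2 count fell by 0.23 for each doubling of transcript length relative to the other libraries, whose slopes ran from -0.06 to 0.11, and the fits that depend on it are also given without it. Haemoglobin transcripts took 0.263% to 1.07% of the counts, with the highest share in WT 4. The Y-linked gene Ddx3y was near 0 in WT 3, Hand2 cKO 1 and Hand2 cKO 3 and at 22.6 to 55.8 CPM in the other 3 libraries, so the WT pair differed in it.

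All 9 genes were expressed in every library, and none of them was called higher or lower in either mutant. To compare levels between genes, counts were divided by transcript length and scaled to a common total (TPM). In WT (n = 2) the order by mean level was Krt18 (63.6 ± 9.21 TPM, SD), Krt8 (53.7 ± 6.66 TPM), Epcam (36.1 ± 4.75 TPM), Sfn (34.2 ± 3.55 TPM), Cdh1 (28.6 ± 2.89 TPM), Trp63 (27.4 ± 5.09 TPM), Cldn4 (26.4 ± 0.918 TPM), Grhl3 (11.4 ± 1.35 TPM) and Krt5 (5.32 ± 3.97 TPM). The ranges of the WT pair overlapped between Krt18 and Krt8, between Epcam and Sfn, and between Cdh1, Trp63 and Cldn4. Within each of the 6 libraries Krt18 exceeded Krt8 and Epcam exceeded Sfn in TPM. The order of Cdh1, Trp63 and Cldn4 differed between WT 3 and WT 4. The keratins of simple epithelium thus stood at the top and the basal keratin Krt5 at the bottom, and Krt8 exceeded Krt5 in all 6 libraries. Of the 9 genes, 6 had their lowest CPM in Gli2/3 cKO 3 (16.8% of all genes tested did), 2 in Hand2 cKO 2 (32.2%) and 1 in WT 3 (14.8%), and 0 in WT 4 (19.2%), Hand2 cKO 1 (8.15%) or Hand2 cKO 3 (8.79%). Keratins of later stratified and mucosal epithelium were scarce, with 0 to 3 counts of Krt4 and 0 to 2 counts of Krt13 in a library.

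Epcam, the pan-epithelial adhesion molecule, was at 37.9 and 34.1 CPM in WT 3 and WT 4, at 43.5, 59.1 and 38.6 CPM in Hand2 cKO 1 to 3, and at 33.3 CPM in Gli2/3 cKO 3. All 3 Hand2 cKO libraries lay above both WT libraries, the highest by far being Hand2 cKO 2, and Gli2/3 cKO 3 lay just below the WT pair. Cdh1, the adherens junction cadherin, was at 63.1 and 60.0 CPM in WT, at 55.6, 49.4 and 55.1 CPM in Hand2 cKO, and at 56.7 CPM in Gli2/3 cKO 3. All 4 mutant libraries were below both WT libraries, so that Hand2 cKO lay on the other side of WT than for Epcam, while Gli2/3 cKO 3 lay below WT for both genes. Cldn4, the tight junction claudin, was at 23.1 and 23.8 CPM in WT, at 23.3, 29.5 and 20.5 CPM in Hand2 cKO, and at 17.1 CPM in Gli2/3 cKO 3. The Hand2 cKO libraries fell on both sides of the WT pair, and Gli2/3 cKO 3 was the lowest of the 6.

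Krt8 was at 45.1 and 58.3 CPM in WT, at 45.5, 70.2 and 43.2 CPM in Hand2 cKO, and at 43.1 CPM in Gli2/3 cKO 3. Its partner Krt18 was at 38.6 and 51.3 CPM in WT, at 39.7, 68.7 and 45.0 CPM in Hand2 cKO, and at 43.3 CPM in Gli2/3 cKO 3. Both simple-epithelial keratins were high in WT 4 and highest in Hand2 cKO 2, and the groups overlapped, apart from Krt8 in Gli2/3 cKO 3, which was just under the lowest other library. The ratio of Krt8 to Krt18 ran only from 0.960 to 1.17 over the 6 libraries, in CPM. An annotated processed pseudogene of Krt8 was listed at 0 counts in all 6 libraries, and the genes annotated over Krt8, Krt5 and Trp63 were also at 0.

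Krt5, the basal keratin, was at 8.40 and 2.83 CPM in WT, at 5.88, 3.96 and 3.40 CPM in Hand2 cKO, and at 2.26 CPM in Gli2/3 cKO 3. The WT pair spanned all 3 Hand2 cKO libraries, and the lone Gli2/3 cKO library lay under the lower WT library. It rested on 59 counts there and on 64 in WT 4, the smallest numbers among the 9 genes. Other basal keratins were not alike. Krt14 was more even than Krt5, at 13.9 and 14.5 CPM in WT, at 14.1, 19.2 and 13.6 CPM in the Hand2 cKO libraries and at 13.0 CPM in Gli2/3 cKO 3. Krt15 was at 5.05 and 3.36 CPM in WT, at 4.56, 3.75 and 2.38 CPM in the Hand2 cKO libraries and at 2.07 CPM in Gli2/3 cKO 3, the last being 49.2% of the WT mean where Krt14 was at 91.4%. The ratio of Krt5 to Krt14 was 0.604 in WT 3 and 0.195 in WT 4, a difference within 1 genotype wider than that between the WT mean (0.400) and Gli2/3 cKO 3 (0.174).

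Trp63, the regulator of the basal layer, was at 57.7 and 47.9 CPM in WT, at 60.3, 39.3 and 57.5 CPM in Hand2 cKO, and at 62.2 CPM in Gli2/3 cKO 3. Gli2/3 cKO 3 was the highest and Hand2 cKO 2 the lowest, and the WT pair lay within the range of the Hand2 cKO libraries. Trp63 and Krt5 lay on opposite sides of WT in the lone Gli2/3 cKO library, where Trp63 was at 118% and Krt5 at 40.2% of the WT mean CPM.

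Grhl3, the periderm and barrier transcription factor, was at 16.3 and 14.9 CPM in WT, at 12.5, 9.06 and 11.4 CPM in Hand2 cKO, and at 6.89 CPM in Gli2/3 cKO 3. In CPM the 3 genotypes did not overlap, with WT highest, Hand2 cKO in between and Gli2/3 cKO lowest. Over all genes, Hand2 cKO lay wholly below WT for 15.7%. Gli2/3 cKO 3 lay below WT for 33.7% and below Hand2 cKO for 27.2%. In TPM Gli2/3 cKO 3 (4.98) lay above Hand2 cKO 2 (4.52). The counts behind these values were 834 and 337 in WT, 661, 343 and 474 in Hand2 cKO, and 180 in Gli2/3 cKO 3. Sfn, the other periderm gene, was at 27.8 and 26.0 CPM in WT, at 26.9, 38.1 and 24.03 CPM in Hand2 cKO, and at 13.3 CPM in Gli2/3 cKO 3. The Hand2 cKO libraries lay on both sides of the WT pair, and Gli2/3 cKO 3 was lower than every other library. The sum of Grhl3 and Sfn was 42.5 ± 2.22 CPM in WT (SD, n = 2), against 40.7 ± 5.96 CPM over the Hand2 cKO libraries (n = 3) and 20.2 CPM in Gli2/3 cKO 3, the last being 47.4% of the WT mean.

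**Figure D1:**
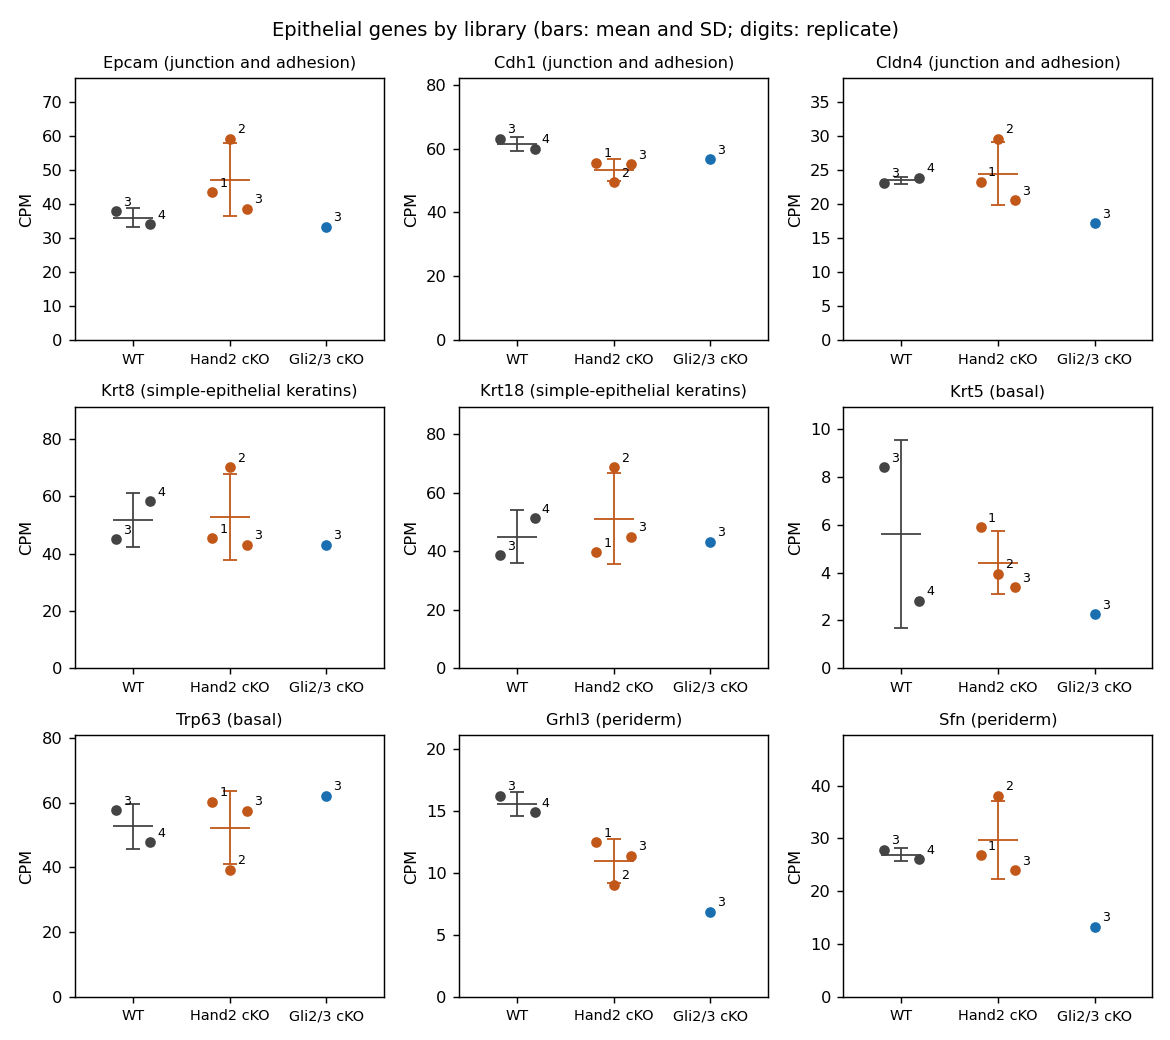
CPM of each of the 9 genes (vertical axes from 0) by genotype, with 1 digit per library giving its replicate number, a bar at the group mean and error bars of 1 SD where a group has more than 1 library. In the Grhl3 panel the 3 genotypes do not overlap (WT from 14.9 to 16.3 CPM, Hand2 cKO from 9.06 to 12.5 CPM, Gli2/3 cKO 3 at 6.89 CPM), while in most other panels Hand2 cKO 2 is the highest or the lowest point.

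Hand2 cKO against WT asks whether loss of Hand2 in the neural crest is accompanied by a change in the epithelium beside it. None of the 9 genes was called by edgeR at an adjusted p below 0.05 and a fold above 1.5, and none by DESeq2, against a background of 0.0114% of all genes with edgeR, all of them lower, and 0.765% with the other tool. With p under 0.05 before adjustment, 1 of the 9 was lower (background 4.02%) and 0 were higher (2.44%) by edgeR, and DESeq2 gave 1. That gene was Grhl3, at 70.6% of the WT mean CPM, with a fitted log2 fold change of -0.50 (SE 0.20, 95% interval -0.99 to -0.02, edgeR with Benjamini-Hochberg adjusted p = 0.723). Its log2 fold change was -0.39 without Hand2 cKO 2. Epcam had a log2 fold change of 0.39 (95% interval -0.13 to 0.91), which dropped to 0.18 without Hand2 cKO 2, and Cdh1 one of -0.21 (-0.54 to 0.12). The remaining 6 genes ran from -0.36 (Krt5) to 0.19 (Krt18), and both ends turned direction when 1 library was left out, Krt5 to 0.64 without WT 3 and Krt18 to -0.10 without Hand2 cKO 2. The groups did not overlap for 2 genes that were lower in Hand2 cKO, Cdh1 and Grhl3 (background 15.7%), and for 1 that was higher, Epcam (15.3%), and the same 3 genes stood apart without Hand2 cKO 2 (22.3% lower and 23.6% higher). The median log2 fold change of the 9 genes was 0.03 (-0.11 without Hand2 cKO 2), beside 0.00 for all genes tested, and the sum of their CPM was 319 ± 0.812 in WT (SD, n = 2) and 326 ± 36.3 in Hand2 cKO (n = 3), with 367 in Hand2 cKO 2 and 313 and 299 in the other two. On simulated counts for this comparison the fit recovered 7.81% of genes changed 2-fold and 78.2% of genes changed 4-fold. Those counts had the same spread for every gene and no length trend, so recovery on the real counts may differ. The 95% intervals of the log2 fold changes of Krt8 (-0.59 to 0.66), Sfn (-0.42 to 0.70) and Cldn4 (-0.42 to 0.54) were wide on both sides of 0.

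Gli2/3 cKO against WT asks the same of Gli2 and Gli3. By edgeR 0 of the 9 genes were called (background 0.0114%), and DESeq2 called 0 (background 0.52%). With p under 0.05 before adjustment, 2 were lower (background 2.96%) and 0 higher (1.63%) by edgeR, and DESeq2 gave the same number. They were the periderm genes. Grhl3 had a log2 fold change of -1.18 (SE 0.29, 95% interval -1.88 to -0.47, edgeR with Benjamini-Hochberg adjusted p = 0.729), which is 2.26-fold lower. Sfn had one of -1.02 (SE 0.32, 95% interval -1.81 to -0.23, edgeR adjusted p = 0.935), which is 2.03-fold lower. Under the 12 alternatives the value for Grhl3 stayed between -1.24 and -1.11 with adjusted p from 0.0618 to 1, and that for Sfn between -1.07 and -0.97 with adjusted p from 0.125 to 1. Krt5 had the lowest value, -1.33, but with a 95% interval of -3.07 to 0.41, and it was -0.32 when WT 3 was left out. Cldn4 followed with -0.46 (-1.12 to 0.20), and Trp63 alone was positive at 0.24 (-0.49 to 0.96). Epcam (-0.11), Cdh1 (-0.12), Krt18 (-0.05) and Krt8 (-0.26) were nearer to 0. The lone mutant library lay below both WT libraries for 7 of the 9 genes (background 33.7%) and above both for 1 (36.6%). The median log2 fold change of the 9 was -0.26, beside 0.00 for all genes. All of these values rest on 1 mutant library, whose own spread is unknown and was taken from the other groups. None of the 12 alternatives could leave that library out, so their narrow ranges do not measure its spread.

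Gli2/3 cKO against Hand2 cKO compares the mutants, and its values share libraries with both comparisons above. Of the 9 genes 0 were called by edgeR (background 0.0343%, with 0.0172% lower and 0.0172% higher), and DESeq2 called 0 (background 0.575%). With p under 0.05 before adjustment, 2 were lower in Gli2/3 cKO (background 2.63%) and 0 higher (2.86%) by edgeR, with 2 by DESeq2. Sfn had a log2 fold change of -1.16 (SE 0.31, 95% interval -1.92 to -0.40, edgeR with Benjamini-Hochberg adjusted p = 0.701) and -0.94 without Hand2 cKO 2. Grhl3 had one of -0.67 (SE 0.27, 95% interval -1.33 to -0.02, edgeR adjusted p = 0.897) and -0.79 without Hand2 cKO 2. Gli2/3 cKO 3 lay below all 3 Hand2 cKO libraries for 6 of the 9 genes (background 27.2%) and above them for 2, Cdh1 and Trp63 (28.7%), with the same genes when Hand2 cKO 2 was left out (38.8% and 38.7%).

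**Figure D2:**
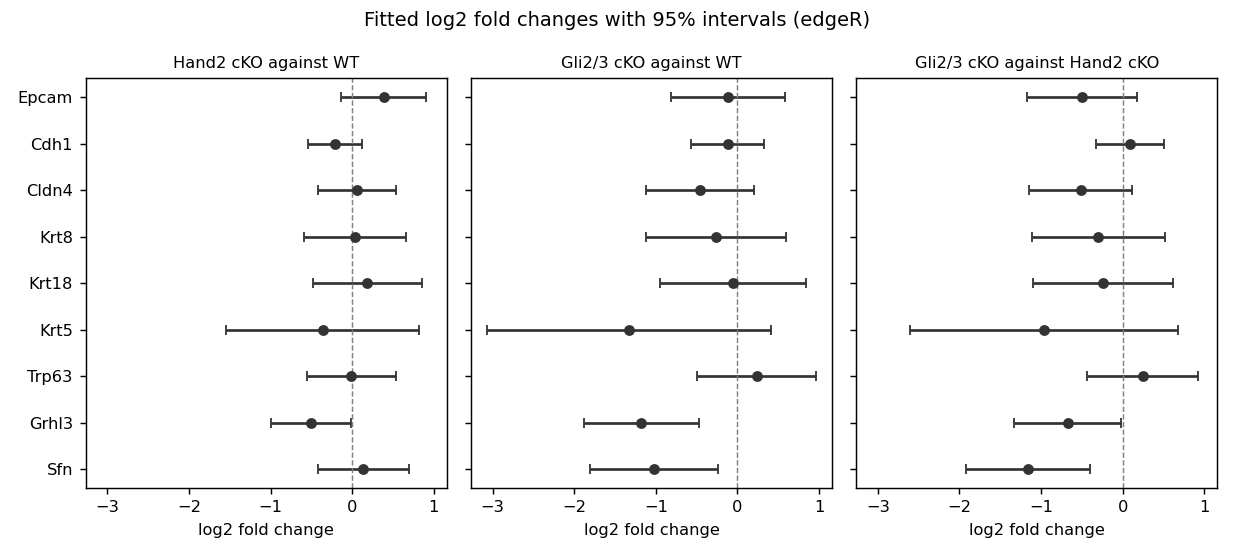
Fitted log2 fold changes (horizontal axes) of the 9 genes in the 3 comparisons, with points at the edgeR estimate, bars for the 95% interval and a dashed line at 0. Grhl3 and Sfn are the genes whose intervals lie wholly below 0 in Gli2/3 cKO against WT (-1.88 to -0.47 and -1.81 to -0.23), and the interval of Krt5 is the widest.

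To compare the layers within the epithelial signal of a library, each gene was also divided by the geometric mean of Epcam and Cdh1 of the same library. For Grhl3 this ratio was 0.332 and 0.330 in WT, then 0.254, 0.168 and 0.248 in the Hand2 cKO libraries and 0.159 in Gli2/3 cKO 3. The ordering of the genotypes was thus that of the CPM, and Gli2/3 cKO 3 stood at 47.9% of the WT mean. For Sfn the ratio was 0.569 and 0.576 in WT, 0.547, 0.705 and 0.522 in Hand2 cKO, and 0.306 in Gli2/3 cKO 3, or 53.4% of the WT mean. The Hand2 cKO libraries again lay on both sides of WT. Trp63 was at 128% of the WT mean ratio in Gli2/3 cKO 3, Krt18 at 104%, Krt8 at 89.7%, Cldn4 at 78.8% and Krt5 at 44.4%. Outside the 9 genes, Krt14 was at 98.8% and Krt15 at 53.6%. Relative to Epcam and Cdh1, Gli2/3 cKO 3 was thus low in the periderm members and close to WT in Krt14. The ratio of Krt5 was 0.172 in WT 3, 0.0626 in WT 4 and 0.0520 in Gli2/3 cKO 3. That of Krt15 was 0.103 and 0.074 in WT, 0.0517 in Hand2 cKO 3 and 0.0476 in Gli2/3 cKO 3. Both were lowest in Gli2/3 cKO 3, but near WT 4 for Krt5 and near Hand2 cKO 3 for Krt15. These ratios are a description with no test. The ratio of Sfn to Grhl3 differed less between WT and Gli2/3 cKO 3 (1.71 and 1.75 in WT, 1.93 in Gli2/3 cKO 3, 2.15, 4.21 and 2.11 in Hand2 cKO).

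**Figure D3:**
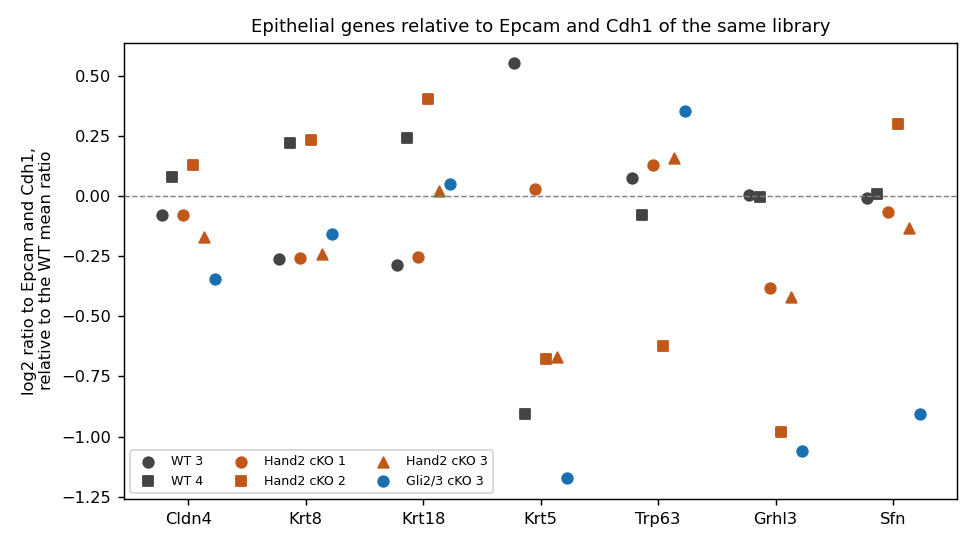
The log2 ratio of 7 genes to the geometric mean of Epcam and Cdh1 in the same library, relative to the WT mean ratio (vertical axis), with 1 marker per library and a dashed line at 0. Grhl3 and Sfn in Gli2/3 cKO 3 sit about 1 log2 unit below the WT libraries (47.9% and 53.4% of the WT mean ratio), and the markers of Krt5 in the WT pair lie far apart.

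The estimated counts were assigned to transcripts, and 7 of the 9 genes have 1 annotated transcript. Trp63 has 8, of which 4 begin at an upstream start and encode TAp63, with the transactivation domain, and 4 begin 118153 bases downstream and encode DeltaNp63, the form known from basal epithelium. The sequences that set the forms apart are shown 5′ to 3′ on the plus strand of mm10 (GENCODE M21), with the start codons of the first coding exons in capitals and, in the exon ends, the 12 bases that only the longer exon holds.

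DeltaN first coding exon of Trp63, chr16:25802060-25802101: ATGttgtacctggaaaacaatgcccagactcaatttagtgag
TA first coding exon of Trp63, chr16:25684290-25684351: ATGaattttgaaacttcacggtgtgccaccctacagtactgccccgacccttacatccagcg
Longer exon end of DeltaN Trp63, chr16:25866170-25866211: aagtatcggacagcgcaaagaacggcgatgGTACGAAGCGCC
Shorter exon end of DeltaN Trp63, chr16:25866170-25866199: aagtatcggacagcgcaaagaacggcgatg

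TA transcripts took 0% to 0.964% of the Trp63 counts, and DeltaN transcripts the rest. In WT 3 the TA share was 0.205% (95% Wilson interval 0.0928% to 0.441%), in WT 4 0.964%, in Hand2 cKO 2 and 3 0.458% and 0.301%, and in Gli2/3 cKO 3 0.84% (0.514% to 1.44%). Hand2 cKO 1 had 0 of 3186 counts, for which the same interval reaches up to 0.12%. The basal form was thus nearly the whole of the Trp63 signal in every genotype, and the intervals cover counting error only. Among DeltaN transcripts, a pair that differs by these 12 bases held most counts. The transcript with the longer exon took 40.8% and 40.9% of their sum in WT, 48.1%, 36.4% and 27.4% in the Hand2 cKO libraries, with 58.0% in Gli2/3 cKO 3. The WT pair agreed closely, the Hand2 cKO libraries spread on both sides of it, and Gli2/3 cKO 3 was above all 5 others (95% Wilson interval 55.6% to 60.6%). That interval leaves out the spread between embryos and the way the authors' program split reads that fit both transcripts, since the pair differs only at this exon end. A DeltaN transcript of 1729 bases that ends earlier held 6.42% to 10.9% of the Trp63 counts.

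**Figure D4:**
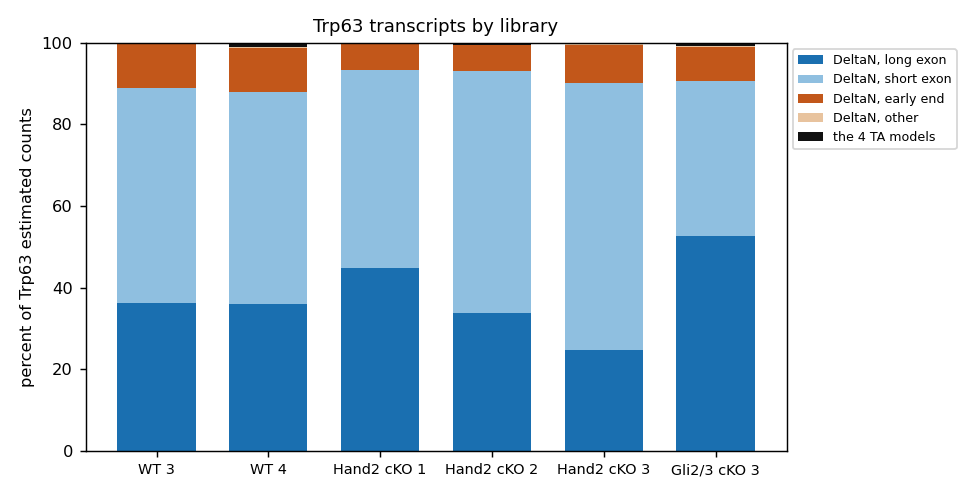
Stacked bars of the percent of Trp63 estimated counts (vertical axis, 0 to 100) held by each transcript in each of the 6 libraries. The share of the transcript with the longer exon is largest in Gli2/3 cKO 3 (52.5%) and smallest in Hand2 cKO 3 (24.7%), and the 4 TA transcripts are hardly visible.

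A wider list of 47 epithelial genes, which does not include the 9, showed whether the rest of the epithelium differed. Of these, 44 passed the filter, the exceptions being Krt4, Krt13 and Ehf. By edgeR 0 of the 44 were called in any comparison (background 0.0114% to 0.0343% of all genes), and by DESeq2 0 (0.52% to 0.765%). At such shares a list of this size would be likely to hold 0. In Hand2 cKO against WT 30 of the 44 had a negative and 14 a positive log2 fold change, with a median of -0.12. At an unadjusted p below 0.05 there were 0 by edgeR, beside 4.02% lower and 2.44% higher over all genes. DESeq2 gave 1, beside 679 lower and 587 higher of 23652 genes. In Gli2/3 cKO against WT 36 were negative and 8 positive, with a median of -0.20, and 3 had an unadjusted p under 0.05 by edgeR, all lower (beside 2.96% lower and 1.63% higher over all genes), with 4 by DESeq2. The lone Gli2/3 cKO library lay below both WT libraries for 29 of the 44 (background 33.7%) and above both for 3 (36.6%). All 3 Hand2 cKO libraries lay below both WT libraries for 13 of the 44 (15.7%) and above both for 2 (15.3%), and without Hand2 cKO 2 these counts were 21 (22.3%) and 3 (23.6%). Both comparisons use the same WT pair.

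The summed level of the 47 genes was at 892 and 873 CPM in WT, at 795, 739 and 815 CPM in the Hand2 cKO libraries and at 792 CPM in Gli2/3 cKO 3. All 4 mutant libraries were below the WT pair in this sum, although no single gene passed the test. Much of the sum came from a few long genes of the junction and adhesion list. The laminin chain Lama5, named after its value was seen, was at 147 and 147 CPM in WT. It was at 116, 69.0 and 134 CPM in the Hand2 cKO libraries and at 139 CPM in Gli2/3 cKO 3. In TPM it was at 28.5 and 37.2 in WT, at 30.4, 48.35 and 33.9 in Hand2 cKO and at 37.3 in Gli2/3 cKO 3. Hand2 cKO 2 was thus the lowest library for Lama5 in CPM and the highest in TPM, so its place for this gene depends on the measure. The reason was not tested, nor was the part of the length trend of that library in the sum. Per gene, the median log2 difference from the WT mean was -0.13, -0.16 and -0.21 in Hand2 cKO 1 to 3 and -0.19 in Gli2/3 cKO 3. The summed level of 12 markers of neural crest mesenchyme ran from 2643 to 3204 CPM in WT, from 2879 to 3288 CPM in Hand2 cKO and was 2631 CPM in Gli2/3 cKO 3. Its part in the epithelial values was not tested.

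Within the wider list, junction and adhesion genes gave the smallest p in Hand2 cKO against WT. Dsc2, a desmosomal cadherin, was at 6.25 and 7.25 CPM in WT and at 4.39, 2.30 and 5.03 CPM in Hand2 cKO (log2 fold change -0.79, 95% interval -1.65 to 0.07, and -0.53 without Hand2 cKO 2). Col17a1, the hemidesmosomal collagen of basal cells, was at 5.57 and 4.95 CPM in WT, at 4.18, 2.01 and 3.35 CPM in the Hand2 cKO libraries and at 2.11 CPM in Gli2/3 cKO 3. For both genes all Hand2 cKO libraries were below the WT pair, with Hand2 cKO 2 the lowest. Jup, which encodes plakoglobin, was at 48.4 and 45.0 CPM in WT, at 39.1, 38.8 and 39.8 CPM in the Hand2 cKO libraries and at 33.3 CPM in Gli2/3 cKO 3. In CPM it did not overlap between genotypes, with the same order as Grhl3. In TPM Jup was at 37.5 and 30.25 in WT and at 25.9, 17.3 and 27.8 in Hand2 cKO. Gli2/3 cKO 3, at 23.0 TPM, lay within that Hand2 cKO range. The log2 fold changes of Jup against WT were -0.25 in Hand2 cKO (edgeR with Benjamini-Hochberg adjusted p = 0.723) and -0.49 in Gli2/3 cKO. Grhl2, the grainyhead factor of all epithelia, was at 23.5 and 26.6 CPM in WT, at 19.0, 18.5 and 22.8 CPM in the Hand2 cKO libraries and at 21.8 CPM in Gli2/3 cKO 3. Its Gli2/3 cKO value was 86.9% of the WT mean CPM, where that of Grhl3 was 44.2%.

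In both Gli2/3 cKO comparisons the smallest p of the wider list belonged to Pkp1, a scarce gene, and Gabrp was another among the 4 smallest. Pkp1, which encodes a desmosomal plakophilin of stratified epithelium, had 109 and 10 counts in WT 3 and WT 4, 39, 29 and 38 counts in Hand2 cKO, and 2 counts in Gli2/3 cKO 3. Gabrp, a receptor subunit expressed in surface epithelium, had 179 and 14 counts in WT, 88, 23 and 68 in Hand2 cKO, and 6 in Gli2/3 cKO 3. Both were lowest in Gli2/3 cKO 3, and both, like Krt5, were several times higher in WT 3 than in WT 4. In CPM, WT 3 and WT 4 stood at 2.12 and 0.442 for Pkp1 and at 3.49 and 0.619 for Gabrp, so the spread within WT covers most of the range of the Hand2 cKO libraries. Against Hand2 cKO, Itgb4, the hemidesmosomal integrin, had 7.42 CPM in Gli2/3 cKO 3 and 5.32, 4.04 and 5.08 CPM in Hand2 cKO, with 6.22 and 5.66 CPM in WT. Klf5, a transcription factor of proliferating epithelium, had 4.09 CPM in Gli2/3 cKO 3, 2.25, 1.03 and 2.55 CPM in Hand2 cKO, and 2.84 and 2.70 CPM in WT. Itgb4 and Klf5 were highest in Gli2/3 cKO 3, at 125% and 148% of the WT mean CPM, and neither was called. Basal genes did not move together in that library. Trp63 was at 118% of the WT mean CPM, but Col17a1 was at 40.0%, Krt5 at 40.2%, Krt15 at 49.2% and Krt14 at 91.4%.

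The list of 12 oral ectoderm factors and epithelial ligands held 0 called genes in any comparison by edgeR or DESeq2. The background was at most 0.0343% of all genes by edgeR and 0.765% by DESeq2. In Hand2 cKO against WT 9 of the 12 had a positive and 3 a negative log2 fold change, with a median of 0.15, and 0 had an unadjusted p under 0.05 by edgeR or DESeq2. In Gli2/3 cKO against WT 6 were positive and 6 negative, and at an unadjusted p below 0.05 by edgeR 2 were lower (Foxe1 and Wnt7b, beside 2.96% of all genes) and 1 higher (Shh, beside 1.63%), named for these values, with 3 by DESeq2. Foxe1, a forkhead factor of oral and pharyngeal epithelium, was at 13.8 and 13.1 CPM in WT, at 13.5, 20.3 and 12.4 CPM in the Hand2 cKO libraries and at 7.23 CPM in Gli2/3 cKO 3. Shh, the ligand that signals from the oral epithelium, was at 10.5 and 10.3 CPM in WT, at 10.3, 11.5 and 12.5 CPM in the Hand2 cKO libraries and at 18.3 CPM in Gli2/3 cKO 3. In the lone Gli2/3 cKO library these epithelial genes lay on opposite sides of WT, with Shh at 191% and Foxe1 at 58.3% of the WT mean ratio to Epcam and Cdh1.

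The 6 repressors of the epithelial programme were Zeb1, Zeb2, Snai1, Snai2, Twist1 and Twist2, which mesenchyme expresses. Their Snail and Zeb members bind the E-box shown in capitals above. Of the 6, 0 were called in any comparison, where edgeR called at most 0.0343% of all genes. Snai2 was at 37.9 and 37.0 CPM in WT, at 50.5, 47.8 and 47.3 CPM in the Hand2 cKO libraries and at 41.6 CPM in Gli2/3 cKO 3, the one repressor with an unadjusted p under 0.05 by edgeR (Benjamini-Hochberg adjusted p = 0.723, in Hand2 cKO against WT). In CPM the groups of Snai2 did not overlap, and its 3 Hand2 cKO values were close together. This did not hold in TPM, where Snai2 was at 39.9 and 35.9 in WT and at 48.0, 32.9 and 47.4 in Hand2 cKO. There Hand2 cKO 2 lay below both WT libraries. Bulk RNA does not show in which cells these transcripts lay.

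Other cell types of the dissection were followed by marker lists. Pharyngeal endoderm also makes Epcam, Cdh1, Krt8 and Krt18. Of its 8 markers 6 passed the filter, Nkx2-1 and Cldn18 being near 0 (0 to 5 and 0 to 3 counts), and their summed level was 25.6 and 19.8 CPM in WT, at 32.3, 27.9 and 29.9 CPM in the Hand2 cKO libraries and at 15.6 CPM in Gli2/3 cKO 3. Pax9, which crest mesenchyme also expresses, made up much of this sum (10.8 and 4.33, then 16.3, 10.5 and 14.4, then 2.72 CPM), while Foxa1 was at 5.65 and 4.60 CPM in WT, from 4.83 to 6.32 CPM over the Hand2 cKO libraries and at 3.98 CPM in Gli2/3 cKO 3. The endoderm list and the periderm members were thus both lowest in Gli2/3 cKO 3, and the part of endoderm in the epithelial values was not tested. Summed macrophage markers were also lowest there, at 15.9 CPM against 24.9 and 30.02 CPM in WT and 23.7 to 30.2 CPM in Hand2 cKO. Summed endothelial markers ran from 222 to 274 CPM and neuronal markers from 29.2 to 37.8 CPM over the 6 libraries. The 8 muscle precursor markers summed to 40.1 to 50.9 CPM, and 7 neural progenitor markers were at 121 and 97.7 CPM in WT, from 145 to 152 CPM over the Hand2 cKO libraries and at 97.0 CPM in Gli2/3 cKO 3. Erythroid markers ranged from 2565 CPM in WT 3 to 10240 CPM in WT 4. Their part in the epithelial values was not tested.

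Transcript length moved with the values of Hand2 cKO 2. Over the 53 epithelial genes that passed the filter, the log2 CPM of Hand2 cKO 2 minus the mean of Hand2 cKO 1 and 3 had a Pearson r of -0.74 and a Spearman rho of -0.78 with log2 transcript length, a description across genes of 1 library set. All 20 genes under 2048 bases were higher in Hand2 cKO 2, with a median of 0.53, and all 13 genes of 4096 bases or more were lower, with a median of -0.58. Of the 9 genes, Krt18 (1437 bases, 0.70), Krt8 (0.66), Sfn (0.58), Epcam (0.53) and Cldn4 (0.44) were on the high side, and Trp63 (-0.58), Grhl3 (-0.40), Krt5 (-0.17) and Cdh1 (-0.16) on the low side. For a gene with 1 transcript, such as Epcam or Grhl3, TPM divides by the same length in every library. It therefore does not remove this trend, and between libraries it differs from CPM only in how each library was scaled. In TPM Epcam was at 39.5 and 32.8 in WT and at 40.9, 40.3 and 38.2 in Hand2 cKO. Its groups did not overlap in CPM and did overlap in TPM. For Grhl3 the Hand2 cKO libraries were below WT in TPM too, with 12.4 and 10.5 in WT and 8.60, 4.52 and 8.27 in Hand2 cKO. Gli2/3 cKO 3, at 4.98 TPM, lay above Hand2 cKO 2, so the order of the 2 mutants was not kept.

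**Figure D5:**
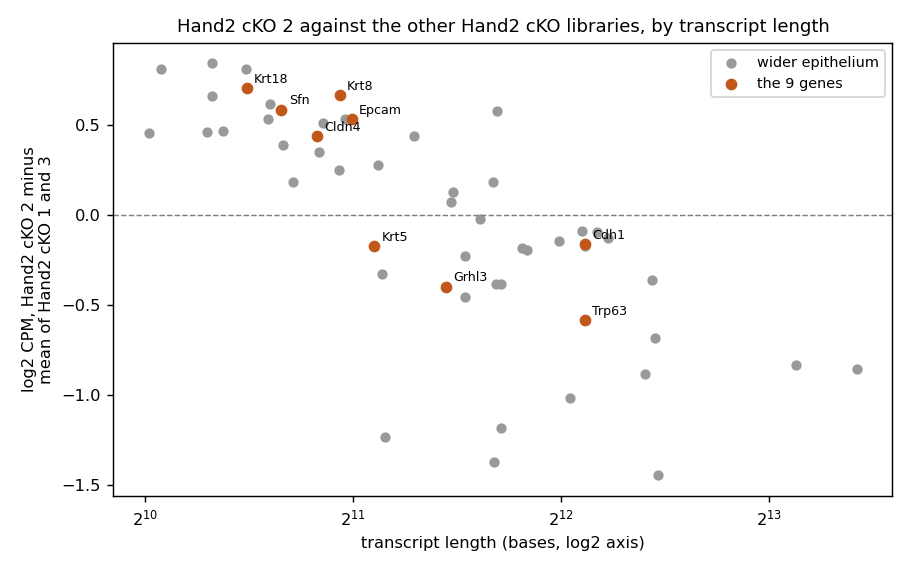
Difference in log2 CPM between Hand2 cKO 2 and the mean of Hand2 cKO 1 and 3 (vertical axis) against transcript length in bases (log2 axis) for 53 epithelial genes, with the 9 genes in orange and the wider list in grey. Points fall with length (Pearson r of -0.74), from a median of 0.53 under 2048 bases to -0.58 at 4096 bases or more.

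The 9 genes did not share 1 pattern over the 6 libraries. Of the 36 pairs, 21 had a positive Pearson correlation of log2 CPM. The closest were Sfn with Cldn4 (0.96) and Krt8 with Krt18 (0.92), and the most opposed were Krt8 with Trp63 (-0.98) and Krt18 with Trp63 (-0.94), pairs of a short and a long transcript. These correlations are over 6 libraries that share depth and the length trend of Hand2 cKO 2, and they are given as a description. Among 11475 other genes, those most like the mean standardised profile of the 9 were Socs1 (Pearson r of 0.997 over 6 libraries), Nfatc4 (0.99), Slc26a11 (0.98), Ptgr1 (0.98), Ppp1r3c (0.98), Pdzd4 (0.98), Tbc1d10b (0.98) and Rara (0.98). None of these 8 is in the wider epithelial list, whose 36 genes in the same range had a median r of 0.31, beside 0.07 for all 11475. An r above 0.5 was found for 15 of the 36 and for 21.3% of all 11475. The 8 are the highest of many values over only 6 libraries.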

How the data were processed

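Bulk RNA-seq of E10.5 MNPs was grouped by the genotype in the sample titles, with 6 of 10 samples analysed here. According to the study's methods, read pairs were aligned to mm10 and quantified with Strand NGS, which also ran DESeq2, and no program version is given in the sources used here. The deposited files hold expected counts, that is, read counts the authors' program estimated for each of 105129 transcripts, and 47.7% to 56.8% of the values of a library lay more than 0.01 from a whole number. Whole counts had been planned for, so the estimates were summed by gene symbol and rounded. Reads shared by near-identical transcripts are split by that program and are less certain.

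All 6 libraries entered 1 edgeR 4.0.16 quasi-likelihood fit (R 4.3.3) with genotype as the only term, trimmed mean of M values scaling and filterByExpr, which kept 17477 genes and left 3 residual degrees of freedom. The Gli2/3 cKO library adds none, and its comparisons use the spread of the other groups. The threshold for a call was a Benjamini-Hochberg adjusted p below 0.05 over all genes tested and a fold above 1.5, and DESeq2 1.42.0 was an alternative. CPM used the scaled library sizes, and TPM was computed from the expected counts and GENCODE M21 transcript lengths. Libraries of 1 group gave a chi-square of 24.0 to 225 per degree of freedom over genes, so none was a repeat of another.

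The 9 genes and all gene lists were chosen with earlier results of these data known. All 9 were named in every comparison. Of the wider epithelial lists the 4 genes with the smallest p per comparison were named, of the ligands and repressors those called, and by likeness the 8 genes with the highest correlation whose mean log2 CPM was 1 or more, leaving out gene models, pseudogenes and ribosomal protein genes. Transcripts were named at 10% or more of a gene's counts. Other names were added after their values were seen. Some genes of these lists are not reported here by name, and the counts and sums over the lists include them.

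The fit was tested on simulated data (3 draws, 200 changed genes in each). The simulated counts kept the library sizes and mean levels of the data. They gave every gene the same spread and had no length trend, unlike the data. There edgeR recovered 7.81%, 78.2% and 96.6% of genes changed 2-fold, 4-fold and 8-fold in Hand2 cKO against WT with a mean of 5 false calls, and 1.54%, 34.7% and 82.2% in Gli2/3 cKO against WT with 2.33. Alternatives were other scaling factors, no filter, DESeq2, a fit of the groups compared only, protein-coding genes only, removal of the length trend and leaving out each replicate.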

Additional observations from a re-analysis of the deposited data

How the results depend on the processing

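None of the 9 genes was called under any of the 12 alternatives in any comparison, and the median log2 fold change of the 9 moved by less than the spread between Hand2 cKO libraries. The number of genes called among all tested depended strongly on the setting. For Hand2 cKO against WT (2 called) it was 45 with no filter on low counts, 1 with upper-quartile factors, 181 by DESeq2, 69 with the length trend removed, 11 over protein-coding genes, and 1 to 39 when a replicate was left out. For Gli2/3 cKO against WT (2 called) it was 21 with no filter, 123 by DESeq2, 57 with only the groups compared, 11 with the length trend removed, and 0 to 14 when a replicate was left out. For Gli2/3 cKO against Hand2 cKO (6 called) it was 39 with no filter, 136 by DESeq2, 20 with only the groups compared, 40 with the length trend removed, and 2 to 23 when a replicate was left out. The highest counts without 1 library were those without Hand2 cKO 2. The lone Gli2/3 cKO library could not be left out. Of the 324 log2 fold changes of the 9 genes under an alternative, 16 changed sign, none of them called, and the cause was not tested. In Hand2 cKO against WT, Krt8 came to -0.0084 with upper-quartile factors, -0.055 with the length trend removed, -0.14 without WT 3 and -0.23 without Hand2 cKO 2, its range without 1 replicate being -0.23 to 0.23. Krt18 came to -0.0068 without WT 3 and ran from -0.10 to 0.41 without 1 replicate, Krt5 from -0.93 to 0.64, Trp63 from -0.14 to 0.14 (0.13 without WT 3), Sfn from -0.10 to 0.27 and Cldn4 from -0.11 to 0.17. With the length trend removed Trp63 came to 0.079 and Cldn4 to -0.045. In Gli2/3 cKO against WT, Krt18 ran from -0.24 to 0.17 without 1 replicate. In Gli2/3 cKO against Hand2 cKO it ran from -0.40 to 0.035, and Cdh1 came to -0.039 with the length trend removed. The counts of genes whose groups do not overlap were recomputed without Hand2 cKO 2, an alternative chosen after seeing the data. No paired analysis was possible because the labels used here link no library of a group to a library of another. The replicate numbers in the titles are not stated to be pairs.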
